A study of Mus musculus with 8 samples.

Results

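The genes described here are 37 genes of the lysosome, chosen by name as a panel of lysosomal hydrolases, lysosomal membrane proteins and the TFE transcription factors. All 37 were found, each under a single identifier, among the 37263 gene identifiers counted in these RNA-seq libraries, and all 37 passed the filter on low counts that left 14931 genes for testing (a level of 1 CPM, the counts-per-million unit, or more in 2 or more libraries). Arsb passed it only through the 24 and 32 hr libraries with vitC.

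The lysosome is the acidic compartment in which cells break down proteins, glycans, lipids and worn-out organelles delivered by endocytosis and autophagy. Its soluble hydrolases work at the low pH kept by a proton pump, the V-ATPase, and its membrane is lined with heavily glycosylated proteins that shield it from those hydrolases. TFEB and TFE3 are basic helix-loop-helix factors that bind the E-box CACGTG, and in particular its extended form GTCACGTG, in front of many lysosomal genes. They are held in the cytoplasm when mTORC1, a kinase complex on the lysosomal surface, is active, and TFE3 is known in mouse embryonic stem cells (ESCs) for sustaining self-renewal when it stays in the nucleus.

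The libraries came from E14, a feeder-free mouse ESC line of strain 129/Ola, grown in serum with LIF and then moved to 2i, a serum-free medium with LIF, the MEK inhibitor PD0325901 and the GSK3 inhibitor CHIR99021. RNA was taken at 4, 16, 24 and 32 hr of the serum-to-2i conversion, in 2i alone or in 2i with 17 µM vitamin C (vitC), and each of the 8 combinations has 1 library. No serum library is analysed here, so the 4 hr libraries, already in 2i, are the base of each time comparison. The 4 and 24 hr libraries were sequenced in lane 8 and the 16 and 32 hr libraries in lane 7, so lane and time cannot be told apart at 16 or 32 hr against 4 hr.

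Totals ran from 4753528 counts (vitC, 24 hr) to 18434932 counts (2i, 16 hr). The share of counts on Lars2 and the features Gm23935 and ENSMUSG00000093077 was 0.0277% and 0.0113% at 4 hr, 0.206% to 5.92% in the later 2i libraries and 4.21% to 7.11% in the later vitC libraries. The cells carried ESC markers in every library: Pou5f1 lay between 280.4 and 505.5 CPM, Nanog between 347.9 and 569.5 CPM, and the 10 ESC markers summed to between 1978 and 2650 CPM. In the test described below, 5 of these 10 were higher and 1 lower at 24 hr than at 4 hr. Over all tested genes 11.5% were higher and 8.98% lower, the shares to set beside each marker count here. Macrophages are rich in lysosomes, and of their 8 markers Tyrobp and Lyz2 each had no count in 7 libraries, Ptprc stayed at or below 0.523 CPM, and the list summed to between 7.65 and 13.5 CPM, most of it Cd68. Of 8 fibroblast markers, 7 were tested and 4 were higher at 24 hr. The list summed to 106.9 and 123.5 CPM at 4 hr and to between 280.1 and 694.8 CPM later, highest with vitC at 24 hr. Col1a1 and Col1a2 made up most of it, while Dcn stayed at or below 3.00 CPM and Lum at or below 0.429 CPM. Of 8 tested markers of primitive or parietal endoderm, 3 were higher at 24 hr (Dab2, Pdgfra and Lama1), with a summed level of 571.9 to 674.2 CPM over all libraries, and of 6 tested trophoblast markers 3 were lower and 1 higher, with sums of 830.7 and 619.6 CPM at 4 hr and 390 to 564.8 CPM later. These changes moved with the lysosomal rise described below, and their part in the result was not tested. In bulk libraries, more cells of a type and more RNA per cell cannot be told apart.

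The letters that TFE factors are known to read are shown first, since both factors are in the panel and many of its genes carry those letters near their start. RefSeq promoter windows, from 250 bases before to 50 bases after a gene's start on GRCm38.p6, were matched for 32 of the 37 genes. The 120 bases before the start are printed for 7 genes that hold CACGTG there. Sgsh also held 1 copy there, at -29, and is not printed, and it was not called at 16, 24 or 32 hr. Glb1, Arsa and Ctsa had a higher level at 24 hr and Mcoln1 and Naglu at 32 hr, while Lamp1 and Ctsd were called at neither time. Each is read 5′ to 3′ on the gene's own strand, and capitals mark CACGTG, extended to 8 letters where GTCACGTG or its reverse complement is present. The windows are chr9:114400958-114401077 (plus strand) for Glb1, chr15:89477425-89477544 (minus) for Arsa, chr2:164833653-164833772 (plus) for Ctsa, chr8:3500399-3500518 (plus) for Mcoln1, chr11:101069974-101070093 (plus) for Naglu, chr8:13159041-13159160 (plus) for Lamp1 and chr7:142387828-142387947 (minus) for Ctsd.
Glb1: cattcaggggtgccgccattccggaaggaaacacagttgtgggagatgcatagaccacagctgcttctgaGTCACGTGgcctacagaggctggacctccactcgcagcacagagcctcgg
Arsa: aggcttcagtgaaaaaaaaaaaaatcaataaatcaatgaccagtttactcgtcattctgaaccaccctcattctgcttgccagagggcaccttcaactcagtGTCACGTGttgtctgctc
Ctsa: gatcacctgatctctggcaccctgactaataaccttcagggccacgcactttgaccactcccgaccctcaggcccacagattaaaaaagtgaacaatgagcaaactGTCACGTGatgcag
Mcoln1: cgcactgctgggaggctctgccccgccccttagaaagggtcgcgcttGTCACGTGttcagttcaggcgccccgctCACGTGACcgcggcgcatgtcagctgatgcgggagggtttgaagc
Naglu: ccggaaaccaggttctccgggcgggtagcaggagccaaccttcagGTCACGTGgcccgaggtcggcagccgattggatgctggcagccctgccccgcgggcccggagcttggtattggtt
Lamp1: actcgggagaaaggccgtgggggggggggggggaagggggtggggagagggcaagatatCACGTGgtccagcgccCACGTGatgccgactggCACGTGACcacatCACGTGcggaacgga
Ctsd: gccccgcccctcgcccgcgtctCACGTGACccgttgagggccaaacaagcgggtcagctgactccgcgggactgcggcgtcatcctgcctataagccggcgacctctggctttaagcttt

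Lamp1 held 4 copies of CACGTG within these bases, starting at -61, -45, -28 and -15 from the start, and Mcoln1 held 2, at -71 and -45. The copy in Glb1 started at -48 and that in Arsa at -16. Over the whole windows, CACGTG (the same on both strands) was present for 12 of the 32 genes, 37.5%, against 8.09% of 27025 genes with a window and 11.8% of the 10551 tested genes with a window. The extended form GTCACGTG, searched on both strands, was present for 10 genes (31.2%), against 2.55% and 4.7%, and the palindrome TCACGTGA for 5 (15.6%), against 1.12% and 2.12%. Both longer forms contain CACGTG, so the 3 counts overlap. No window of Tfeb or Tfe3 held CACGTG. Of the 12 genes with CACGTG, 4 were higher at 24 hr than at 4 hr, and of the 20 without it, 7 were, with median log2 fold changes of 0.478 and 0.369. At 32 hr against 4 hr, 7 of the 12 and 9 of the 20 were higher. Over all tested genes, 11.5% were higher at 24 hr and 13.5% at 32 hr. These are matches of letters, and no binding was measured.

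More of the 37 lysosomal genes were called higher than lower at 24 hr against 4 hr in 2i, the comparison made within lane 8. In edgeR's quasi-likelihood test with treatment and time as terms, 13 of the 37 rose and 2 fell at an adjusted p (Benjamini-Hochberg over all tested genes) under 0.05, against a background of 11.5% of all tested genes higher and 8.98% lower. The median log2 fold change of the 37 was 0.445, and that of all tested genes was 0.00765. The genes that rose were Ctsa, Ctsb, Tpp1, Gaa, Glb1, Hexa, Neu1, Arsa, Galns, Psap, Npc2, Lamp2 and Grn, and those that fell were Tfeb and Atp6v1h. Summed over the 37 genes, levels were 2576, 3444, 3365 and 3722 CPM in 2i at 4, 16, 24 and 32 hr and 2680, 2986, 3272 and 3903 CPM with vitC. Each later library lay above both 4 hr libraries in this sum.

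With 1 library per combination, the error of each fold change measures how far the time courses with and without vitC run from being parallel, since no combination has a repeat. The count of 15 called genes fell to 7 without the 2i 24 hr library, to 6 without the vitC 4 hr library and to 4 without the vitC 24 hr library. The share of all tested genes called in those fits is not given here, so the losses are not compared with those of other genes. With the Lars2 share as a covariate, 0 of all genes were called, the median of the 37 was 0.537 and all 15 kept their direction. In that fit Ctsb (1.20) and Lamp2 (1.10) were larger and Atp6v1h (-0.25) smaller in size by over 1.5 times. The share was lower in both 4 hr libraries than in every later library. The fit therefore cannot tell the share apart from time, and neither the lost calls nor the kept directions decide between them. Within lane 8 alone 13 members were called, 12 of them among the 15, without Gaa, Galns and Atp6v1h, and DESeq2 called neither Gaa nor Atp6v1h.

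**Figure D1:**
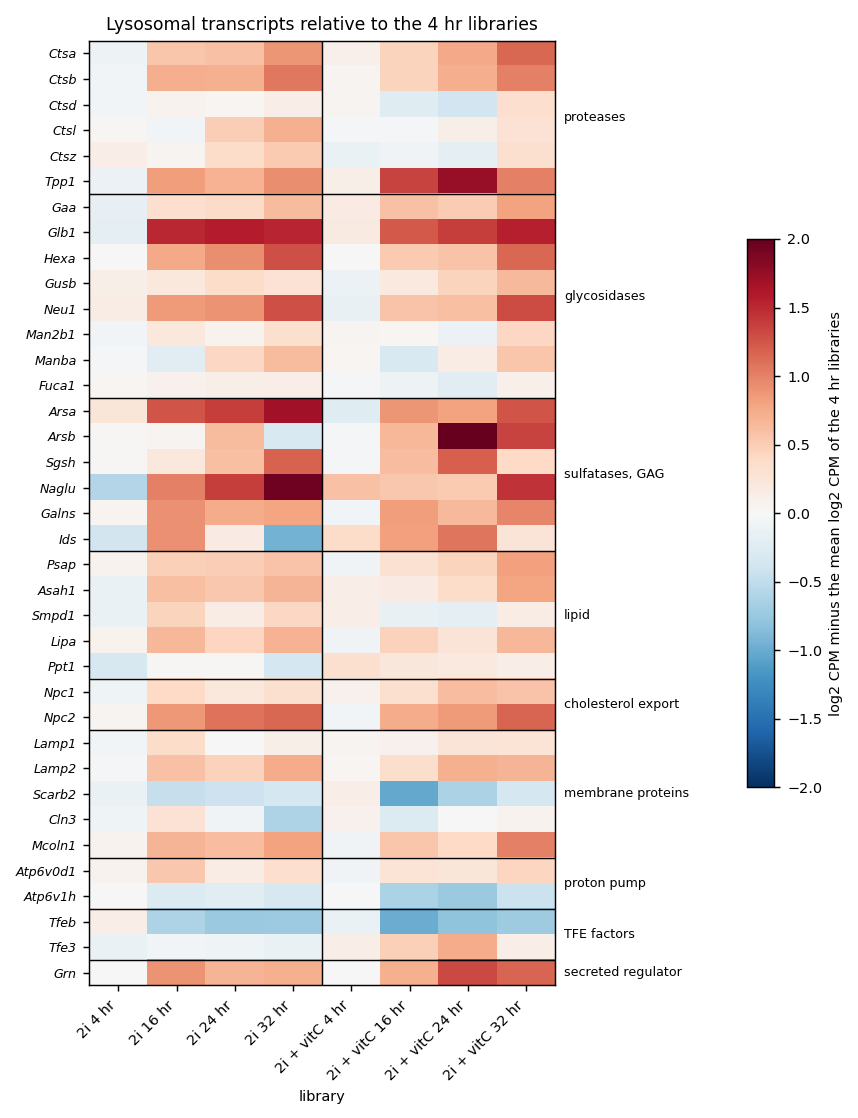
Each row is a lysosomal gene, grouped by role, and each column a library. Colour is the log2 CPM minus the mean log2 CPM of both 4 hr libraries, and values past the ends of the scale take its end colour. Glb1, Arsa, Tpp1 and Npc2 are red in all 6 later libraries, and Tfeb, Atp6v1h and Scarb2 are blue in all 6.

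Among the glycosidases, which remove sugars from glycolipids, glycoproteins and glycogen, 4 of 8 rose at 24 hr and none fell (11.5% and 8.98% of all tested genes). Glb1, the beta-galactosidase that degrades GM1 ganglioside, had the largest rise of the called genes. Its levels at 4, 16, 24 and 32 hr, the order used for every gene, were 19.8, 63.7, 66.4 and 64.4 CPM in 2i and 25.4, 52.2, 58.4 and 66.0 CPM with vitC. All 6 later libraries lay above both 4 hr libraries, with no overlap (log2 fold change 1.47, SE 0.18, adjusted p = 0.00031). Hexa, the alpha subunit of the hexosaminidase that degrades GM2 ganglioside, stood at 57.8, 98.6, 111 and 143 CPM in 2i and 58.6, 83.4, 86.5 and 129.6 CPM with vitC. It was higher at each successive time in both treatments (log2 fold change 0.75, SE 0.14, adjusted p = 0.0038 at 24 hr and log2 fold change 1.22, SE 0.14, adjusted p = 0.00014 at 32 hr). Neu1, the lysosomal sialidase, stood at 27.9, 45.2, 46.8 and 61.0 CPM in 2i and 22.6, 37.4, 38.0 and 61.7 CPM with vitC, again without overlap between 4 hr and later (log2 fold change 0.75, SE 0.16, adjusted p = 0.0079). Gaa, the acid alpha-glucosidase that degrades glycogen, rose less, with 42.9, 60.5, 62.9 and 74.4 CPM in 2i and 54.0, 72.2, 68.3 and 84.5 CPM with vitC (log2 fold change 0.45, SE 0.14, adjusted p = 0.042). The other 4, Gusb (beta-glucuronidase), the mannosidases Man2b1 and Manba, and the fucosidase Fuca1, lay between 15.9 and 59.4 CPM with log2 fold changes from -0.04 to 0.39 at 24 hr, and Manba was called at 32 hr only (0.59, adjusted p = 0.037). Without a single library, the 24 hr call of Hexa was lost without 2i 24 hr (adjusted p = 0.061), that of Neu1 without 2i 24 hr, vitC 4 hr or vitC 24 hr (up to 0.085), and that of Gaa without any of 6 libraries (all but 2i 16 hr and vitC 16 hr, up to 0.25). The 32 hr call of Manba was lost without any of the same 6 (up to 0.19). Glb1 passed in all 8 such fits, where its log2 fold change ran from 1.22 to 1.72.

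**Figure D2:**
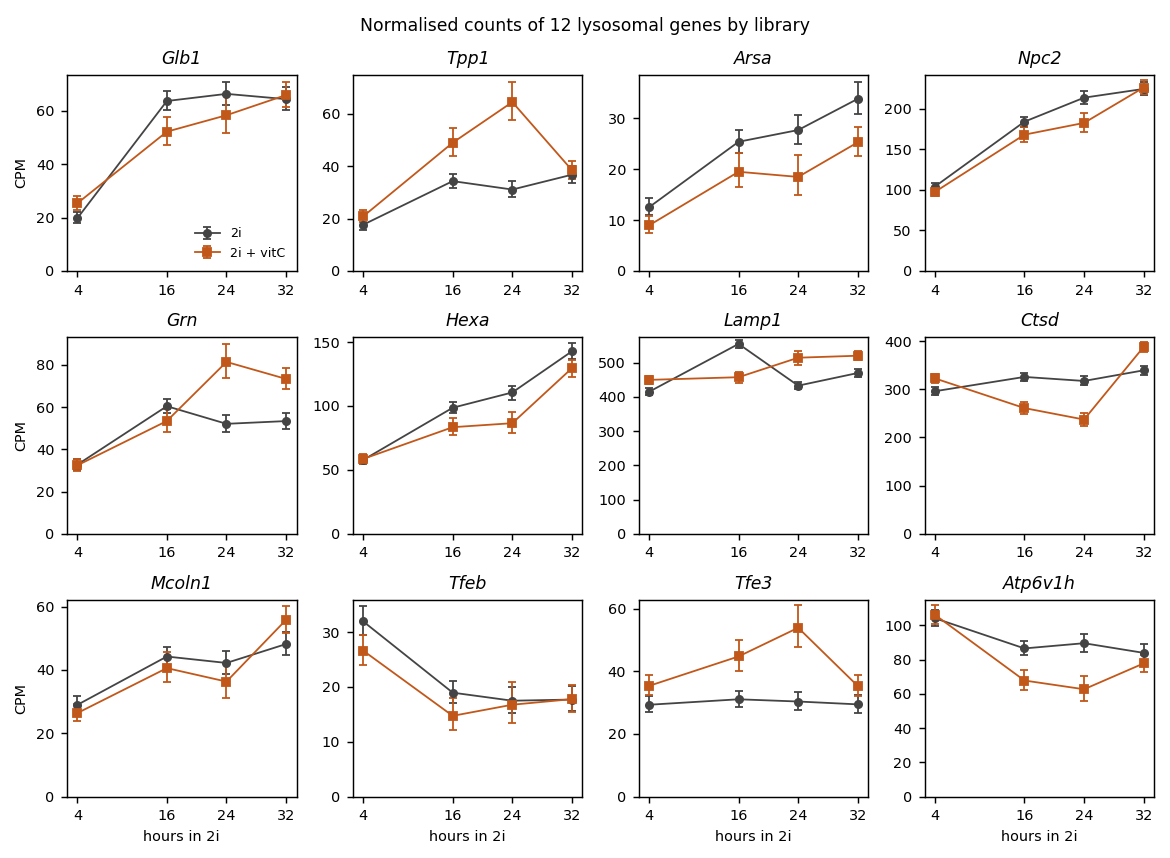
Each panel shows a gene's CPM (linear axis from 0) against hours in 2i for the libraries in 2i (grey circles) and 2i with vitC (orange squares), 1 library a point. Bars are 95% Wilson intervals, which cover counting error only. Glb1 goes from 19.8 and 25.4 CPM at 4 hr to between 52.2 and 66.4 CPM later, and Tfeb from 31.9 and 26.6 CPM to between 14.7 and 18.9 CPM.

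Of the 6 proteases, 3 rose at 24 hr (11.5% of all tested genes). Tpp1, a serine peptidase that cuts tripeptides from protein ends and is mutated in a neuronal ceroid lipofuscinosis, stood at 17.6, 34.3, 31.0 and 36.7 CPM in 2i and 20.8, 48.9, 64.4 and 38.4 CPM with vitC. It was higher in every later library, most of all with vitC at 24 hr (log2 fold change 1.23, SE 0.22, adjusted p = 0.0028). Ctsb, a cysteine protease, stood at 109.7, 189, 187 and 237 CPM in 2i and 118, 154, 189 and 228 CPM with vitC (log2 fold change 0.72, SE 0.14, adjusted p = 0.0047). Ctsa, the carboxypeptidase that also holds Glb1 and Neu1 in a stabilising complex, stood at 44.7, 70.3, 72.1 and 88.1 CPM in 2i and 51.3, 65.1, 80.7 and 106 CPM with vitC (log2 fold change 0.67, SE 0.15, adjusted p = 0.008). All 3 genes of that complex, Ctsa, Glb1 and Neu1, were therefore called higher at 24 hr. Of them, Glb1 alone kept that call in every fit that leaves out a library. Ctsd, the main aspartic protease and per length the most abundant of the proteases, stood at 296, 326, 317 and 339 CPM in 2i and 322, 261, 237 and 388 CPM with vitC. Its later libraries lay on both sides of the 4 hr pair, and the change at 24 hr did not pass (log2 fold change -0.17, SE 0.17, adjusted p = 0.52). Ctsl and Ctsz, both cysteine proteases, lay between 158 and 268 CPM and between 57.1 and 93.5 CPM. They had log2 fold changes of 0.31 and 0.11 at 24 hr that did not pass (adjusted p = 0.16 and 0.65), and Ctsl passed at 32 hr (0.50, adjusted p = 0.029), though not without any of the 4 and 32 hr libraries (up to 0.27). At 24 hr, the call of Tpp1 was lost without either the vitC 4 hr or the vitC 24 hr library (up to 0.071), that of Ctsb without vitC 24 hr (0.07) and that of Ctsa without 2i 24 hr, vitC 4 hr or vitC 24 hr (up to 0.087).

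Of the 6 sulfatases and other enzymes of glycosaminoglycan breakdown, 2 rose at 24 hr (11.5% of all tested genes). The other 4 had positive log2 fold changes that did not pass. Arsa, the sulfatase of sulfatide, stood at 12.5, 25.4, 27.7 and 33.8 CPM in 2i and 8.96, 19.5, 18.5 and 25.3 CPM with vitC. Later libraries lay above the 4 hr pair in both treatments, with the lower level in the vitC library at each time (log2 fold change 1.10, SE 0.20, adjusted p = 0.0026). Galns, a sulfatase of keratan sulfate, stood at 13.8, 24.8, 22.03 and 22.8 CPM in 2i and 12.6, 23.5, 20.6 and 25.9 CPM with vitC (log2 fold change 0.70, SE 0.20, adjusted p = 0.028). Naglu and Sgsh, enzymes of heparan sulfate breakdown, were scarce, with mean levels of 6.05 and 5.52 CPM. Naglu stood at 1.98, 5.999, 7.76 and 11.4 CPM in 2i and 4.48, 4.33, 4.29 and 8.09 CPM with vitC, so its 4 hr libraries differed from each other and overlapped the later ones, and it passed at 32 hr only (log2 fold change 1.58, SE 0.42, adjusted p = 0.016). Ids, the sulfatase of heparan and dermatan sulfate, passed at 16 hr (0.93, adjusted p = 0.045) and stood at -0.31 at 32 hr, from 7.40, 17.9, 10.7 and 4.90 CPM in 2i and 12.2, 16.7, 19.97 and 11.3 CPM with vitC. Sgsh lay between 3.59 and 8.37 CPM (0.89, adjusted p = 0.12), and Arsb, a sulfatase of dermatan sulfate with 5 to 14 counts a library, had the widest error (log2 fold change 1.30, SE 0.79, adjusted p = 0.27). The 24 hr call of Galns was lost without any of 4 libraries (2i 4 hr, 2i 24 hr, vitC 4 hr, vitC 24 hr, adjusted p up to 0.17), the 32 hr call of Naglu without 2i 4 hr, 2i 32 hr or vitC 32 hr (0.15, with log2 fold changes from 0.80 to 2.57), and the 16 hr call of Ids in all but the fit without vitC 16 hr (0.54, from 0.36 to 1.38). Arsa passed in all 8.

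Of the 5 lipid hydrolases and activators, 1 rose at 24 hr (11.5% of all tested genes), and nothing is read from that count. Psap, the precursor of the saposins that present sphingolipids to their hydrolases, was among the most abundant members and stood at 271, 361, 364 and 384 CPM in 2i and 247, 319.7, 353 and 456 CPM with vitC. Every later library was above both 4 hr libraries (log2 fold change 0.47, SE 0.14, adjusted p = 0.038), and the call was lost without any of 4 libraries (2i 4 hr, 2i 24 hr, vitC 4 hr, vitC 24 hr, adjusted p up to 0.26). Asah1, the acid ceramidase, stood at 152, 252, 240.2 and 267 CPM in 2i and 181, 186, 214 and 286 CPM with vitC. It did not pass at 24 hr (0.45, adjusted p = 0.078) and passed at 32 hr (0.73, adjusted p = 0.0077), though not without 2i 4 hr or vitC 32 hr (up to 0.11). Lipa, the acid lipase of cholesteryl esters and triglycerides, stood at 23.3, 35.1, 29.8 and 35.7 CPM in 2i and 20.99, 30.6, 26.4 and 35 CPM with vitC. It passed at 16 hr (0.57, adjusted p = 0.04) and at 32 hr (0.68, adjusted p = 0.013) and not at 24 hr (0.34, adjusted p = 0.18). It lost the 16 hr call without any of the 8 libraries (up to 0.17) and the 32 hr call without any of the 4 and 32 hr libraries (up to 0.1). Smpd1, the acid sphingomyelinase, and Ppt1, which takes palmitate off proteins, lay between 16.8 and 25.9 CPM and between 26.2 and 41.6 CPM, with log2 fold changes of -0.02 and 0.11 at 24 hr (adjusted p = 0.97 and 0.7).

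Cholesterol leaves the lysosome through NPC2, a soluble protein that binds it, and NPC1, the membrane protein that receives it. Npc2 stood at 104, 184, 214 and 224 CPM in 2i and 97.5, 168, 182 and 226 CPM with vitC. The 4 hr and later libraries did not overlap in either treatment (log2 fold change 0.97, SE 0.14, adjusted p = 0.00066), and it passed in all 8 fits that leave out a library. Npc1 stood at 43.2, 60.7, 53.1 and 57.3 CPM in 2i and 48.8, 57.4, 70.6 and 68.5 CPM with vitC. Its later libraries were also all above the 4 hr pair, by a smaller amount that did not pass (0.41, adjusted p = 0.083).

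Of the 5 membrane proteins, 1 rose at 24 hr (11.5% of all tested genes), and nothing is read from that count. Lamp2, a glycoprotein of the lysosomal membrane needed for autophagy, stood at 108, 168, 153 and 186 CPM in 2i and 114, 143, 182 and 178 CPM with vitC (log2 fold change 0.59, SE 0.15, adjusted p = 0.016), and lost the call without 2i 4 hr, vitC 4 hr or vitC 24 hr (adjusted p up to 0.23). Lamp1, its more abundant relative, stood at 415, 555, 433 and 469.8 CPM in 2i and 449.7, 458, 514 and 520.3 CPM with vitC. The 4 hr and later libraries overlapped, and no change passed (log2 fold change 0.13, SE 0.15, adjusted p = 0.58). Mcoln1, the cation channel TRPML1 that lets calcium out of the lysosome, stood at 29.0, 44.2, 42.2 and 48.2 CPM in 2i and 26.4, 40.6, 36.3 and 55.8 CPM with vitC. It lay above both 4 hr libraries at each later time, passed at 16 hr (0.62, adjusted p = 0.027), just missed the threshold at 24 hr (log2 fold change 0.51, SE 0.17, adjusted p = 0.051) and passed at 32 hr (log2 fold change 0.91, SE 0.17, adjusted p = 0.0022). The 16 hr call was lost without any of the 4 and 16 hr libraries (up to 0.15) and the 32 hr call without vitC 32 hr (adjusted p = 0.051). Scarb2, also called LIMP-2, carries the hydrolase glucocerebrosidase to the lysosome, and it was lower later, with 49.8, 39.7, 40.8 and 42.7 CPM in 2i and 59.5, 26.8, 35 and 42.9 CPM with vitC. All 6 later libraries were below both 4 hr libraries, and the fall passed at 16 hr (-0.71, adjusted p = 0.027) but not at 24 hr (-0.53, adjusted p = 0.072). That 16 hr call was lost without any of 4 libraries (2i 32 hr, vitC 4 hr, vitC 16 hr, vitC 32 hr, adjusted p up to 0.23, from -1.03 to -0.44), and with the Lars2 share as a covariate the value was -0.15 (adjusted p = 0.89). Cln3, a membrane protein mutated in juvenile neuronal ceroid lipofuscinosis, lay between 17.0 and 31.8 CPM (log2 fold change -0.04, adjusted p = 0.93).

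Neither proton pump member was called higher at 24 hr. Atp6v1h, a regulatory subunit of the cytosolic V1 sector, stood at 104, 86.6, 89.6 and 84.0 CPM in 2i and 106, 67.8, 62.7 and 77.8 CPM with vitC. Every later library was below the 4 hr pair (log2 fold change -0.48, SE 0.16, adjusted p = 0.048), a call lost without any of 5 libraries (2i 24 hr, 2i 32 hr, vitC 4 hr, vitC 24 hr, vitC 32 hr, adjusted p up to 0.42). Atp6v0d1, a subunit that joins the V0 and V1 sectors, stood at 92.1, 127, 96.6 and 110.1 CPM in 2i and 82.6, 105, 103 and 117 CPM with vitC, a change that did not pass (0.19, adjusted p = 0.38).

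The Tfeb transcript was called lower at 16, 24 and 32 hr against 4 hr, while no change of Tfe3 passed. Tfeb stood at 31.9, 19.0, 17.5 and 17.7 CPM in 2i and 26.6, 14.7, 16.8 and 17.8 CPM with vitC. It was lower at each later time in both treatments, with log2 fold changes of -0.79, -0.78 and -0.72 at 16, 24 and 32 hr (SE 0.20, 0.20 and 0.20, adjusted p = 0.019, 0.018 and 0.019). Each of these calls was lost without any of the 4 libraries that the comparison sets against each other (adjusted p up to 0.11, 0.15 and 0.17), with negative values in every such fit. Tfe3 stood at 29.3, 31.0, 30.3 and 29.4 CPM in 2i and 35.3, 44.7, 53.9 and 35.3 CPM with vitC. In 2i alone its values stayed within 29.3 and 31.1 CPM, its highest values were with vitC at 16 and 24 hr, and the change with time did not pass (log2 fold change 0.33, SE 0.18, adjusted p = 0.23). Mitf, another factor of the same family, rose from 21.4 and 19.65 CPM at 4 hr to between 37.6 and 61.8 CPM later (log2 fold change 1.32, SE 0.19, adjusted p = 0.00069), and Tfec had counts in the vitC 16 hr library alone. The RNA of a TFE factor does not show whether the protein is in the nucleus, which was not measured here.

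Grn, progranulin, a secreted protein that also reaches the lysosome and is cut there into granulins, stood at 32.7, 60.4, 52.1 and 53.4 CPM in 2i and 32.4, 53.4, 81.4 and 73.3 CPM with vitC. It rose in both treatments (log2 fold change 1.00, SE 0.20, adjusted p = 0.0048), and lost the call without the vitC 4 hr or the vitC 24 hr library (adjusted p up to 0.099).

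**Figure D3:**
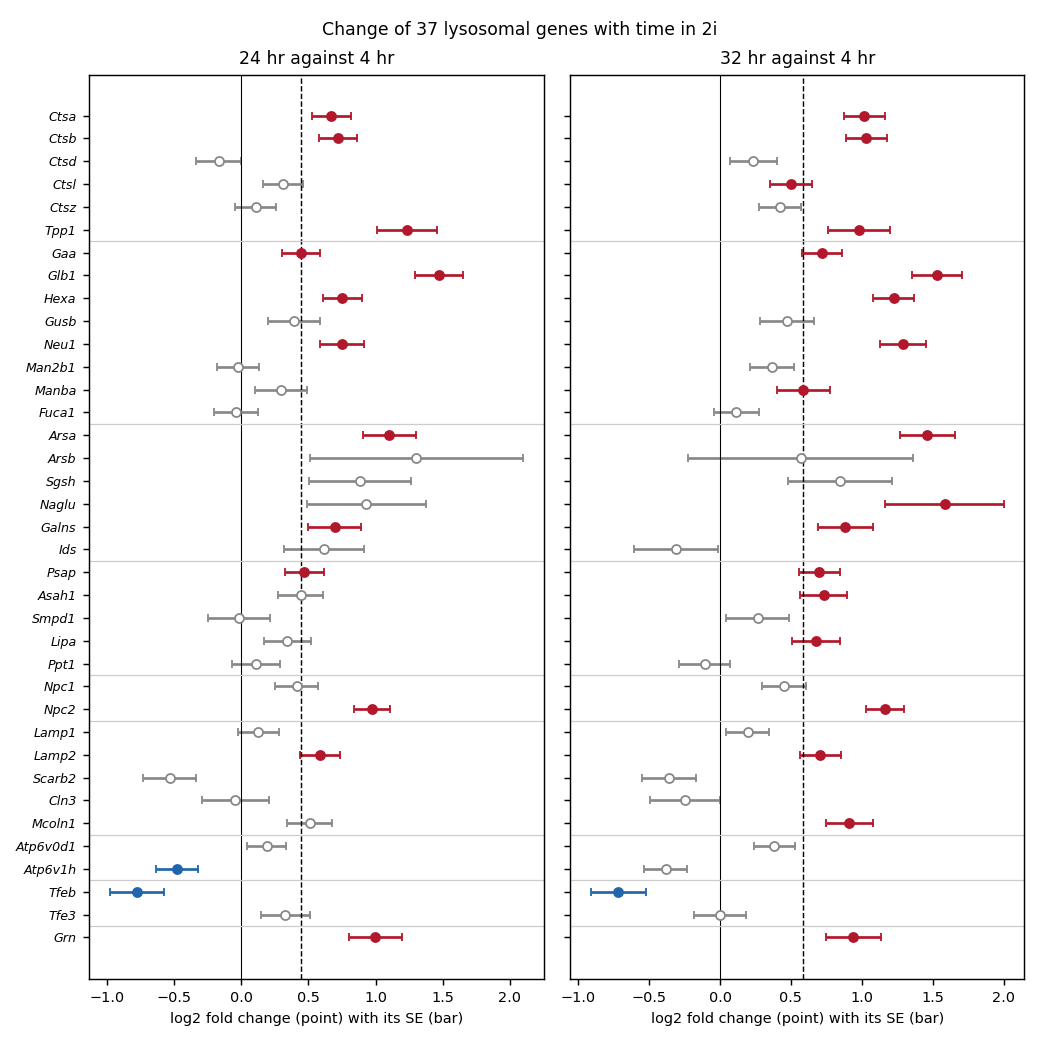
Log2 fold change of the 37 genes (points) with its SE (bars) at 24 hr against 4 hr (left) and 32 hr against 4 hr (right). Red is higher and blue lower at an adjusted p under 0.05, open grey is not called, and the dashed line is the median, 0.445 on the left and 0.588 on the right.

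The other times use the same 4 hr libraries, so their values stand beside those of 24 hr and add no independent evidence. At 16 hr, 15 of the 37 were higher and 2 lower (9.16% and 7.24% of all tested genes), with a median of 0.395, and at 32 hr 19 were higher and 1 lower (13.5% and 11.8%), with a median of 0.588. Tfeb was the gene lower at 32 hr, and Tfeb and Scarb2 were those lower at 16 hr. Of the calls, Arsa, Glb1 and Npc2 held in every fit that left out a library at 16 hr as at 24 hr. At 32 hr, 8 held: Ctsa (1.02), Ctsb (1.03), Gaa (0.72), Glb1 (1.53), Hexa (1.22), Neu1 (1.29), Arsa (1.46) and Npc2 (1.16). Without a library the count of 17 at 16 hr fell to 5 (without 2i 16 hr or vitC 4 hr), 9 (2i 4 hr) or 11 (2i 32 hr or vitC 32 hr), and the count of 20 at 32 hr to 10 (vitC 32 hr), 12 (vitC 4 hr) or 13 (2i 32 hr). Shares over all tested genes in these fits are likewise not given. With the Lars2 share as a covariate, 1 call was left at 16 hr and 2 at 32 hr, although the medians were 0.52 and 0.672 and every called member kept its direction. The call left at 16 hr was Glb1 (1.78, adjusted p = 0.04, against 1.37 without the share). Those left at 32 hr were Glb1 (1.98, adjusted p = 0.023, against 1.53) and Ctsb (1.40, adjusted p = 0.035, against 1.03). At 32 hr Hexa stood at 1.35, Arsa at 1.31 and Npc2 at 1.11, against 1.22, 1.46 and 1.16. These 3 lost the call (adjusted p = 0.053, 0.14 and 0.081). By over 1.5 times, Ctsb (0.93), Ids (1.54) and Lamp2 (0.85) were larger at 16 hr and Asah1 (1.23), Lamp2 (1.10) and Naglu (2.81) at 32 hr, while Scarb2 (-0.15) was smaller in size at 16 hr. These fits have the limit given above, that the Lars2 share and time cannot be told apart.

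By levels alone, all 6 later libraries lay above both 4 hr libraries for 20 of the 37 genes, against 18.7% of all tested genes, and below them for 3 (Scarb2, Atp6v1h and Tfeb), against 19%. The other 14 overlapped. The 20 included Gusb, Sgsh, Asah1, Lipa, Npc1, Mcoln1 and Atp6v0d1, which were not called at 24 hr.

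Between 16 and 32 hr, whose libraries share lane 7, no member passed in edgeR (0.335% of all tested genes were higher and 0.248% lower), and DESeq2 called 3. At an unadjusted p under 0.05 in edgeR were 10 members, and 2129 of all 14931 tested genes. The median log2 fold change of the 37 was 0.236. Of the 10, those with an adjusted p nearest the threshold were Manba (0.85, adjusted p = 0.069), Ids (-1.24, 0.085) and Hexa (0.58, 0.088), chosen after their values were seen. The ratio of 32 to 16 hr was above 1 for 24 of the 37 genes in 2i and for 32 with vitC, with median log2 ratios of 0.0863 and 0.341.

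Per length, the most abundant members were Lamp1 (mean over libraries 178 RPKM, the CPM per kilobase of exon), Ctsd (132 RPKM), Psap (126 RPKM), Asah1 (65.6 RPKM), Atp6v0d1 (58.1 RPKM), Ctsz (50.0 RPKM) and Hexa (48.1 RPKM). Of these 7, Psap and Hexa rose at 24 hr and the other 5 did not pass. Glb1 averaged 17.3 RPKM, Tfe3 3.91 and Tfeb 3.57, and the scarcest was Arsb at 0.130 RPKM. Some exon bases lie in other genes too (39.9% for Arsb, 34.4% for Ctsd, 26.8% for Ctsl, 21.6% for Sgsh, 18.8% for Arsa, 17.4% for Ctsa and 12.8% each for Ctsb and Hexa in GENCODE M21). The strand setting of the counts is not given in the sources used here, so how reads there were counted is not known.

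The rest of the lysosomal system was counted from lists of its other genes, at 24 against 4 hr, where 11.5% of all tested genes were higher and 8.98% lower. Of other hydrolases and their cofactors, 8 of 24 tested were higher and 1 lower, with a median of 0.494. Among those with the largest changes were Man2b2, a mannosidase (1.85, adjusted p = 0.00038), the cathepsin Ctsf, the gene that fell (-1.48, 0.012), and Galc, the galactocerebrosidase (1.02, 0.022). Other membrane proteins had 3 of 18 higher and none lower, with a median of 0.196, and those higher included Tmem192 (1.15, 0.0026) and the endolysosomal cation channel Tpcn1 (1.12, 0.027).

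Apart from the family of Tfeb and Tfe3, where Mitf (1.32) was the only other gene tested, medians of the remaining lists lay nearer that of all genes. Nothing is read from a list whose count is near the share over all genes. Other proton pump subunits had 2 of 15 higher, Atp6v0a1 (1.00, adjusted p = 0.0014) and the accessory Atp6ap1 (0.54, 0.032), none lower, and a median of -0.0345. The genes that tag hydrolases with mannose 6-phosphate and sort them had 2 of 13 higher and 1 lower, with a median of 0.0307. Igf2r, the large mannose 6-phosphate receptor (0.69, 0.0042), and the adaptor Gga1 (0.86, 0.008) rose, and Nagpa, which uncovers the tag, fell (-0.85, 0.046). The mTORC1 and folliculin machinery on the lysosome had 5 of 21 higher and 1 lower, with a median of -0.111. The members named by the largest change were Lamtor2 (0.77, 0.049), the Rag GTPase Rraga (0.69, 0.015) and Depdc5 of the GATOR1 complex (0.64, 0.0088), all higher, with Rragd also higher (0.63, 0.043). Mtor itself was the fifth that was higher (0.57, 0.023), and Rheb, the GTPase that activates mTORC1, was lower (-0.62, 0.016), both named after their values were seen. Autophagy genes had 2 of 26 higher and 3 lower, with a median of -0.0546. The initiating kinases Ulk2 (0.88, 0.0062) and Ulk1 (0.78, 0.014) rose, and Wipi2 (-0.59, 0.0089) and the lipid kinase Pik3c3 (-0.47, 0.045) fell, as did the cargo receptor Sqstm1 (-0.44, 0.04), named after its values were seen.

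**Figure D4:**
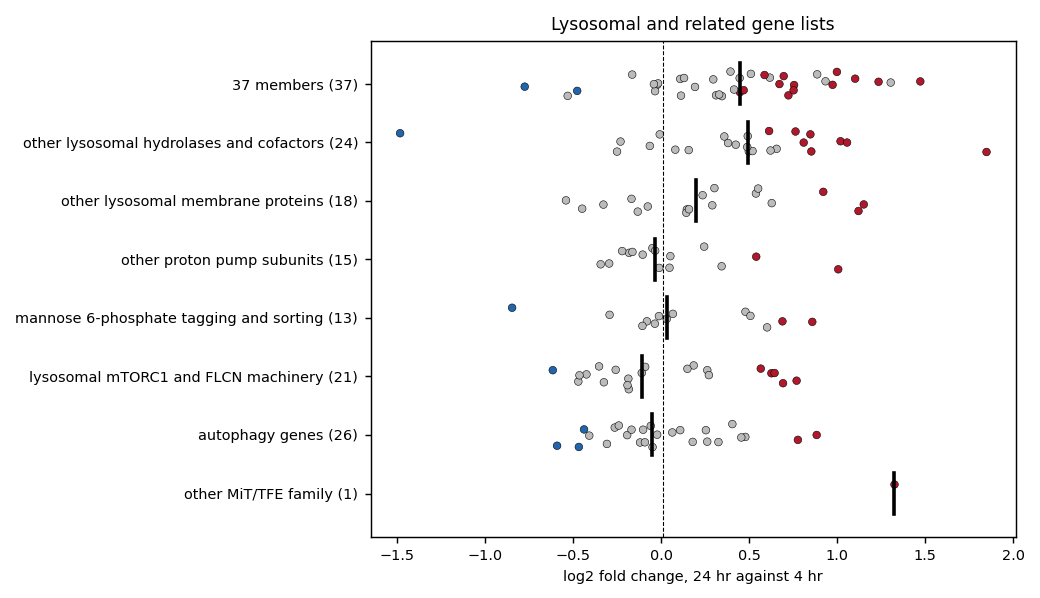
Each point is a tested gene's log2 fold change at 24 hr against 4 hr, by list, with the number tested in parentheses. Red is higher and blue lower at an adjusted p under 0.05, thick bars are list medians (0.445 for the 37 genes, 0.494 for other hydrolases, -0.0345 for other pump subunits) and the dashed line is the median of all tested genes, 0.00765.

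vitC did not change any member past the threshold. The vitC term gave 0 calls among the 37 in edgeR (0.107% of all tested genes were higher and 0.0603% lower) and 0 in DESeq2. At an unadjusted p under 0.05 in edgeR were 7 members, and 2062 of all 14931 tested genes. Nothing is read from that count of members. The median log2 fold change of the 37 was -0.0575, with 14 genes above 0 and 23 below. The 7, chosen after their values were seen, were Tfe3 (0.47, adjusted p = 0.13), Arsa (-0.46, 0.14), Ids (0.66, 0.18), Tpp1 (0.47, 0.19), Ppt1 (0.38, 0.2), Ctsz (-0.28, 0.26) and Gaa (0.22, 0.34). Arsa and Ctsz were lower, and Tfe3, Tpp1 and Gaa higher, with vitC at each of the 4 times. None of these misses shows that vitC had no effect on these genes.

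Pair by pair, the direction of the group was not steady. Across the pairs at 4, 16, 24 and 32 hr, 21, 7, 16 and 24 of the 37 genes were higher with vitC, and the median log2 ratios were 0.0789, -0.182, -0.0953 and 0.0666. The pairs at 16 and 24 hr are those with the smaller vitC libraries. A term that lets the vitC effect change linearly over the hours passed for no gene in edgeR and for no member in DESeq2. Naglu was the 1 member at an unadjusted p under 0.05 in edgeR (adjusted p = 1.0), as were 431 of all 14931 tested genes. Naglu was higher with vitC at 4 hr (4.48 against 1.98 CPM) and lower at 24 hr (4.29 against 7.76 CPM) and 32 hr (8.09 against 11.4 CPM).

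**Figure D5:**
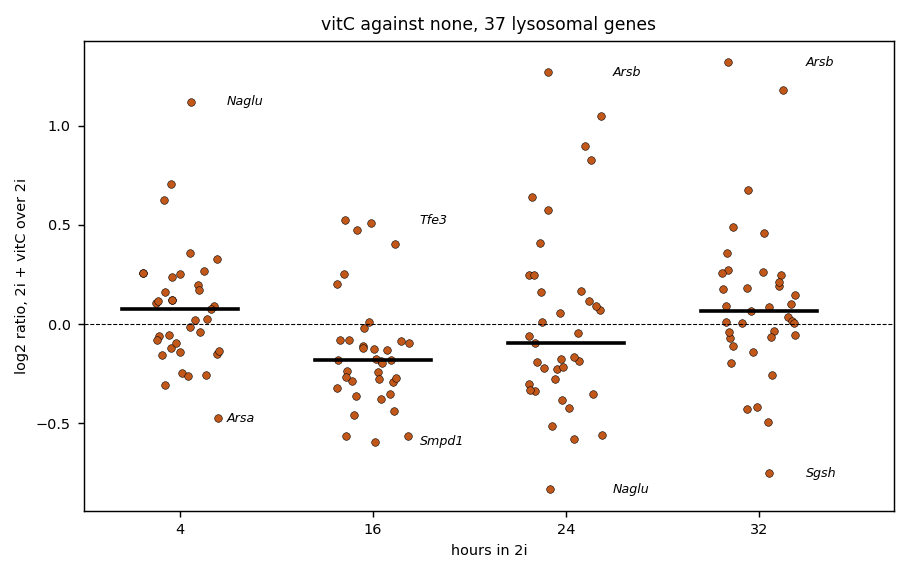
Each point is a member's log2 ratio of the vitC library to the 2i library at the same time, and bars are medians (0.0789, -0.182, -0.0953 and 0.0666). Genes at the ends of each range are named, and points spread on both sides of 0 at every time.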

How the data were processed

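Gene counts of 8 RNA-seq libraries of E14 ESCs were analysed. Per the labels, total RNA was depleted of ribosomal RNA, made into libraries with a TruSeq RNA kit and read as 50 bp single ends. The deposited files hold whole-number counts per Ensembl gene that the authors made with HTSeq after aligning with GSNAP, and the submitters' processing notes name the builds NCBIM37 and mm9. The annotation release and the strand setting are not given in the sources used here. No row lacked a gene name, and no 2 libraries were identical.

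Symbols, exon lengths and GC content came from GENCODE M21 (32604 of 37263 identifiers matched). Counts were scaled by TMM in edgeR 4.0.16 (R 4.3.3) and printed as CPM. A single quasi-likelihood model with treatment and time as terms was fitted to all 8 libraries (3 residual degrees of freedom) over the 14931 genes that reached 1 CPM in 2 or more libraries, with Benjamini-Hochberg adjustment over all of them and a threshold of 0.05. The term for a linear change of the vitC effect over time left 2 residual degrees of freedom. Log2 ratios of single libraries used a prior count of 2. DESeq2 1.42.0, other scalings, filters, covariates and libraries left out were alternatives. Scripts were tested on simulated counts.

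Each combination has 1 library, and nothing says that the treatments came from separate cultures. The p-values of the time and vitC tests rest on how far the courses with and without vitC run from parallel, not on a spread between repeats. Wilson intervals (95%) reflect counting error and nothing else, because amplified reads carry no molecular identifiers. The members and lists were chosen with earlier results of these data known. All 37 members are described, with full statistics for those past the 24 hr or vitC test and for Tfeb, Tfe3, Mcoln1 and Lamp1, and from other lists up to 4 genes past the 24 hr test with the largest change at a mean of at least 5 CPM are named, except some that are not reported here.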

Additional observations from a re-analysis of the deposited data

How the results depend on the processing

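At 24 hr against 4 hr, 15 of the 37 genes were called, and DESeq2, its size factors in edgeR, no filter on low counts, offsets for GC content and gene length, thinning to the smallest total, no treatment term and lane 8 alone gave between 12 and 16. The median log2 fold change was 0.305 with the offsets for GC content and gene length and 0.445 without them. With the log2 share of counts on Lars2 and 2 other features as a covariate, which takes up a residual degree of freedom, 0 were called at 24 hr (0 of all tested genes, with 10 members at an unadjusted p under 0.05), 1 at 16 hr and 2 at 32 hr, where 17 and 20 had been called, with member medians of 0.537, 0.52 and 0.672 against 0.445, 0.395 and 0.588 without it. In both 4 hr libraries that share was lower than in every later library, so fits with it cannot tell it apart from time. No treatment term gave 10 calls at 16 hr, and the cause was not tested. Leaving out each library in turn gave 4 to 18 calls at 24 hr, 5 to 13 at 16 hr and 10 to 23 at 32 hr. Shares over all tested genes in those fits are not given here. At 32 against 16 hr, where 0 were called, DESeq2 gave 3, no filter 4, thinned counts 1, lane 7 alone 2 and leaving out a library 0 to 1, and the cause was not tested. The vitC term gave 0 calls under every alternative except no filter, which gave 3, and its change with hours gave 0 under all 4 alternatives run. Every member called at 16, 24 or 32 hr kept its direction under every alternative. No paired analysis was possible because each combination has 1 library without a replicate number, and time is already a term of the vitC comparison. In the smallest library, vitC at 24 hr, 3 counts amount to 0.631 CPM, against 0.163 CPM in the largest.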
